A study of Rattus norvegicus with 58 samples.

Results

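The cytosolic ribosomal protein genes were taken as the genes whose only symbol in the platform annotation starts with Rpl or Rps followed by a digit, plus Rpsa, Rplp0, Rplp1 and Rplp2, with the ribosomal S6 kinases (Rps6k genes) left out. The rule found 50 genes among the 14217 genes with a single symbol, and each was read from its probe set of highest mean over all arrays. Of these, 34 symbols name large-subunit and 16 small-subunit proteins, with paralogs and pseudogene symbols counted among them. A further 36 probe sets carried a ribosomal protein symbol beside other symbols, so they were tested with the rest but not counted as members.

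Liver RNA of male rats, 17 weeks old and fasted overnight, was measured on Affymetrix rat expression arrays. The heterogeneous stock (HS) rats, outbred animals descended from several inbred strains, comprised 23 glucose-intolerant rats and 23 rats with normal glucose tolerance. Each of 6 inbred strains (ACI, BN, BUF, F344, M520, WKY) was measured with 2 arrays. No group carried a transgene or an experimental treatment, per the labels, and nothing in the labels tells whether same-strain rats shared a litter, so p-values measure the spread between these arrays.

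A ribosome is built from a small subunit, which reads the messenger RNA, and a large subunit, which joins the amino acids. Each ribosomal protein is made by its own gene and is needed in about the same number of copies as the others, and the genes are known to be expressed in a coordinated way. Their messengers begin with a run of pyrimidines, the 5′-terminal oligopyrimidine (TOP) tract, through which growth and nutrient signals of the mTOR pathway set how well they are translated. In liver, ribosomes serve the heavy load of secreted plasma proteins, and their number changes with feeding and fasting.

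The start sites of members that the strain results turn on are printed first, because a TOP tract would begin there. RefSeq promoters (GRCr8) were matched for 41 of the 50 genes. Each window holds 15 bases before and 15 bases from the annotated start, with the longest run of C and T in capitals. The run may lie on either side of that start. In Rpl23, Rps6, Rps3, Rpsa and Rpl18 it ends before the start, outside the annotated messenger. A marked run is thus not shown to be a TOP tract.

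Rps24 (chr16:96502-96531, plus strand): tgagcggTCCTCTTTTCCTCCTTTacagct
Rpl27a (chr1:172974558-172974587, plus strand): cgagacttggtgggCTCCTCCCTCTTTCTT
Rpl22 (chr5:168117946-168117975, plus strand): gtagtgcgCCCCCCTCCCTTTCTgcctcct
Rpl35a (chr11:81235007-81235036, minus strand): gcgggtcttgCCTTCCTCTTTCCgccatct
Rpl19 (chr10:83519049-83519078, plus strand): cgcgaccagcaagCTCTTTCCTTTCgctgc
Rpl23 (chr10:83272170-83272199, minus strand): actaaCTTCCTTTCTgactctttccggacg
Rpl12 (chr3:36661925-36661954, plus strand): ggagcaacatccgTCTTTTCggctttcggt
Rps3a (chr2:173827028-173827057, minus strand): gagttgtacttccgCCCTTTTggctctcag
Rps6 (chr5:106420526-106420555, minus strand): gacgCCTCCTaggcggtcggctgtgtcaag
Rps3 (chr1:163195762-163195791, minus strand): TTCCTTTCagcggcgcgcggcagcaagatg
Rplp0 (chr12:46718376-46718405, minus strand): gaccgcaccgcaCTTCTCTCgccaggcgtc
Rpsa (chr8:128728864-128728893, plus strand): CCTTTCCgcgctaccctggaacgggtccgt
Rps16 (chr1:92770643-92770672, plus strand): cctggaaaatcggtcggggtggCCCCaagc
Rpl18 (chr1:105325255-105325284, plus strand): TCTggacctggtctagcaggaggcgccatc

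From Rps24 down to Rps6 these are the genes with both F344 arrays below the other strains, with runs of 6 to 17 letters. From Rps3 down to Rpl18 they are the genes with both M520 arrays below the other strains, with runs of 3 to 8 letters. Rpl23a and Rpl37a, also low in F344, had no matched promoter. The genes were chosen for their array values, few are in each set, and the run lengths of the sets were not compared by a test. The longest run among the members was that of Rpl34, with 20 letters:

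Rpl34 (chr2:221962269-221962298, minus strand): CCCCTTCCTTTTCCTCTTCCggggacggtg

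A run of at least 10 such letters was present in 17 of the 41 member windows (41.5%), against 4.92% of the 33469 RefSeq promoter windows of the same length. The median longest run was 8 letters in members and 4 over all windows. These counts take runs anywhere in the window, so they are not counts of TOP tracts. A short run at an annotated start says only that these letters are not in this window. In the whole 300-base promoters, searched on both strands, CCGGAAG, the core bound by ETS-family factors, was found in 10 of 41 members (24.4%, against 8.75% of all promoters). The YY1 core AAGATGGCG was found in 3 (7.32%, against 1.73%). TATAAA, the core of the TATA box, was found in 6 (14.6%, against 14.2%). CCGGAAG ends in the letters AAG with which AAGATGGCG begins, so that 1 stretch can hold both, but no member held both. These matches describe the letters and are not shown to be binding sites.

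All values are deposited log2 signals, on which a step of 1 doubles the signal. Over all arrays the values ran from 1.86 to 14.97, with array medians of 5.33 to 5.39 and correlations of 0.989 to 0.997 between the 2 arrays of a strain. The 7 of 8 hepatocyte markers found on the array, albumin and apolipoproteins among them, had means of 13.1 to 14.9, and 7 of the 8 lymphocyte markers found lay below the median of the arrays. No marker was listed at 0. Because the tissue is bulk liver, fewer cells of a type and less RNA per cell cannot be told apart.

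The members fell into bright and dim probe sets. A mean of at least 10 was held by 38 genes, 26 of the large and 12 of the small subunit, with means of 10.95 (Rpl14) to 13.52 (Rps29). The probe sets of Rpl19 (12.83) and Rpl26 (12.71) came next below Rps29. The other 12 genes had means of 2.41 to 8.67, and 7 of them lay below the median of the arrays. A dim probe set does not give a gene's level relative to other genes, since probe sets bind with different strength. A set of 4 standard ribosomal proteins, Rpl28 (3.18), Rpl30 (3.22), Rps13 (4.50) and Rpl39 (6.95), were represented only by such dim probe sets. The others were paralogs or pseudogene symbols: Rps4x-ps1 (2.41), Rpl3l (3.15), a paralog of Rpl3 known from muscle, Rpl39l1 (3.68), Rpl26l1 (5.36), Rpl37-ps2 (5.45), Rps4y2 (6.10), Rps27l (8.37), a paralog known as a p53 target in human cells, and Rpl7l1 (8.67).

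The first comparison set intolerant HS rats against HS rats of normal glucose tolerance. No ribosomal protein gene passed the limma test, with p-values adjusted by the Benjamini-Hochberg method over all 31042 probe sets, as 0% of probe sets did. At an unadjusted p under 0.05 there were 3 of 50 members, all with lower values in intolerant rats, against 8% of all probe sets in either direction, 4.83% with lower and 3.17% with higher values. Differences ran from -0.08 to 0.24, their median was -0.02, and 13 of 50 were above 0. Over all 14217 genes the median was -0.01 and 6037 differences (42.5%) were above 0. Of the 38 bright members, 9 were above 0, with a median of -0.02. Of the 1249 genes with a mean of at least 10, 54.5% were above 0, with a median of 0.01.

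Rpl37a, a large-subunit protein, had the smallest p. Its signal was 12.32 at the lowest, 12.51 at the median and 12.72 at the highest in intolerant rats, against 12.48, 12.58 and 12.66 in normal rats. Its mean was 12.51 ± 0.08 (SD, n = 23) in intolerant rats and 12.58 ± 0.05 (SD, n = 23) in normal ones. The groups overlapped over most of their range, and intolerant rats held both the lowest and the highest array. The difference was -0.08 ± 0.02 (SE), with an adjusted p = 0.366 in limma.

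Rps16, a small-subunit protein whose tail reaches the decoding site, ran from 11.75 through a median of 11.97 to 12.15 in intolerant rats, against 11.82, 12.03 and 12.22 in normal rats. The difference was -0.07 ± 0.03 (SE, limma adjusted p = 0.562). Rpl22, an RNA-binding large-subunit protein, ran from 11.51 through 11.66 to 11.87 in intolerant rats, against 11.63, 11.70 and 11.84 in normal rats, a difference of -0.05 ± 0.03 (SE, limma adjusted p = 0.616). Both groups overlapped for each of these genes. Rps6, the substrate of the S6 kinases, had a median of 12.25 in intolerant rats (12.12 to 12.46) and 12.31 in normal rats (12.21 to 12.45), with an adjusted p = 0.629 in limma.

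The bounds on these differences were narrow. The 95% confidence interval lay within 0.25 log2 units on either side of 0 for all 38 bright members, whose widest bound was 0.24 (Rpl4, a protein of the exit tunnel, with a difference of 0.12 and an adjusted p = 0.629 in limma). Of the 12 dim members, 10 had intervals inside that bound. Rpl39l1 had the largest difference of the members, 0.24 ± 0.13 (SE, limma adjusted p = 0.637). Its signal ran from 3.12 through a median of 3.64 to 5.40 in intolerant rats, against 3.23, 3.48 and 4.59 in normal rats, below the array median in all but 1 array.

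**Figure D1:**
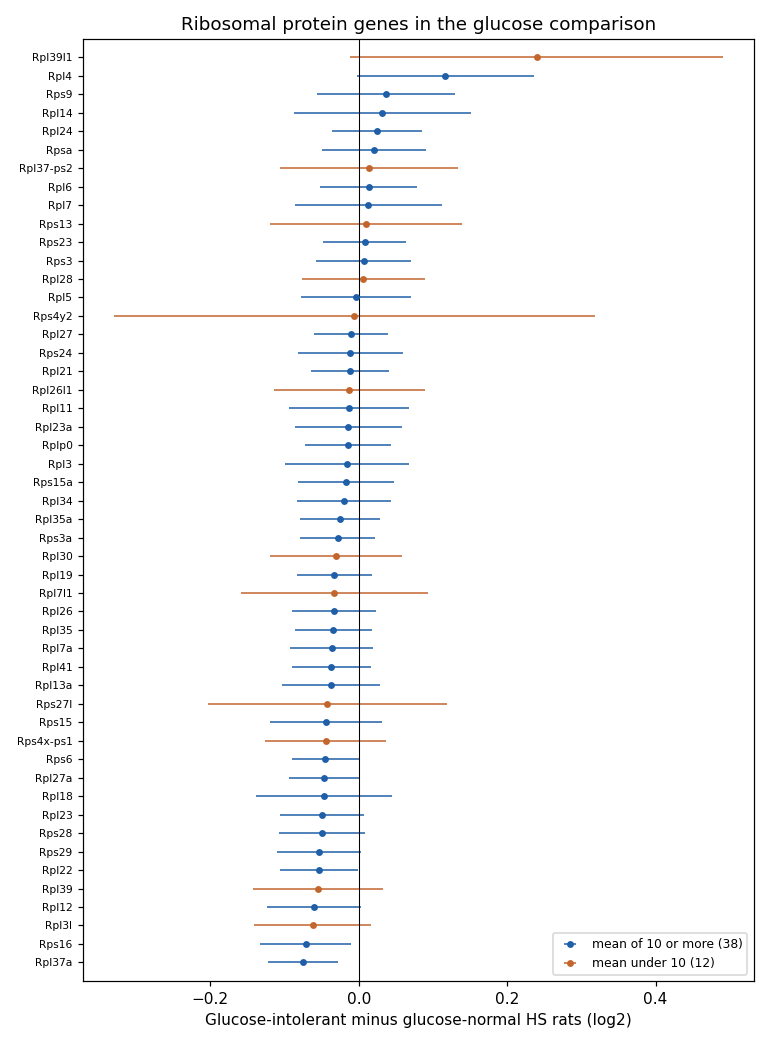
Difference in log2 signal, glucose-intolerant minus glucose-normal HS rats (23 arrays each), for the 50 ribosomal protein genes; bars are 95% confidence intervals from limma, blue for probe sets with a mean of 10 or more and orange for dimmer ones. The bright members lie between -0.08 and 0.12, while Rpl39l1 and Rps4y2 have the wide intervals.

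The markers of other cell types are given beside this comparison. Endothelial markers had lower means in intolerant rats for 6 of 6 genes, with a median difference of -0.12, and none passed the test. Kupffer cell and macrophage markers had lower means in 7 of 8, with no call. Differences above 0 were held by 3 of 7 hepatocyte, 3 of 8 stellate and matrix and 2 of 4 bile duct markers. The counts above 0 were 4 of 8 for lymphocyte and 0 of 2 for erythroid markers, against 42.5% of all genes. The mean endothelial level was 7.50 to 8.57 (median 8.25) in intolerant rats, against 7.77 to 8.59 (median 8.39) in normal rats. Their part in the ribosomal protein differences was not tested.

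Among outbred rats the ribosomal protein genes varied little. After removal of the 2 group means, the SD over the 46 HS arrays had a median of 0.10 in members and 0.17 over all genes, and 41 of 50 members lay under the median of all genes. The 38 bright members had a median SD of 0.09, against 0.16 in the 1249 genes with a mean of at least 10. Rps6, Rpl37a and Rpl27a had the smallest SD of the members (0.06, 0.07 and 0.07). Counting the gene itself, 0.162%, 0.225% and 0.260% of all genes had an SD as small or smaller.

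The members of largest SD were dim paralogs. Rps4y2 had an SD of 0.57, Rpl39l1 of 0.44 and Rps27l of 0.28. Rps4y2, a copy of the small-subunit gene Rps4, ran from 5.19 through a median of 6.10 to 6.84 in intolerant rats, against 4.59, 6.10 and 7.26 in normal rats. Its groups shared nearly the same median, and the difference was -0.01 ± 0.16 (SE, limma adjusted p = 0.994). Rps27l ran from 8.13 through 8.41 to 8.83 in intolerant rats, against 7.84, 8.41 and 9.13 in normal rats, again with equal medians at this precision.

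The bright members moved together from rat to rat. Pearson's r between pairs of the 38 bright members over the 46 HS arrays, with group means removed, had a median of 0.43 over 703 pairs, and 84.9% of pairs were above 0. Over all pairs of the 1249 bright genes the median was 0.01 and 51.8% were above 0. All pairs share the same arrays and their common scaling, so these values are a description. The median over member pairs was 0.35 without the 5 arrays farthest from their group mean in the bright members, and 0.34 after quantile normalization.

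The correlation was not uniform. Average-linkage clustering of the same 46 arrays, cut at 2, gave a larger group of 24 genes and a smaller group of 14. The larger group held Rpl3, which lies near the peptidyl transferase centre, and the pair Rpl5 and Rpl11, which carry the 5S ribosomal RNA into the large subunit. It also held Rpl4, Rpl7, Rpl14, Rps6, Rps24 and Rplp0 among others. The smaller group held Rpl13a, Rpl18, Rpl22, Rpl27a, Rpl35, Rpl35a, Rpl37a, Rpl41, Rps3a, Rps15, Rps16, Rps28, Rps29 and Rpsa. Both groups mixed large-subunit and small-subunit proteins. Some genes lay near the cut. The mean r of Rpl27a was 0.46 with the larger group and 0.50 with the rest of its own smaller group. For Rpl21, of the larger group, it was 0.38 with the rest of its own group and 0.34 with the smaller.

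The median r was 0.59 within the larger group, 0.53 within the smaller group and 0.15 between them. The groups were cut from these arrays, so that contrast is built in. The highest pair was Rpl14 with Rpl7 (0.92), and Rpl11 reached 0.91 with Rpl7 and 0.91 with Rpl5. The lowest pair was Rpl18 with Rpl4 (-0.68), and Rpl18 also opposed Rpl14 (-0.62).

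The 12 inbred arrays were not used to form the groups. With strain means removed, the median r in them was 0.57 within the larger group, 0.51 within the smaller group and 0.21 between them. Over the 6 strain means it was 0.64, 0.62 and 0.32. The order of the 3 values was thus the same in the inbred rats, over far fewer points and with the same scaling across arrays. With 2 arrays per strain, removing the strain mean leaves mirrored values, so the 12 points hold 6 independent ones. The larger group mean minus the smaller differed most between the arrays of BUF (-0.26 and -0.51) and F344 (-0.16 and -0.37).

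**Figure D2:**
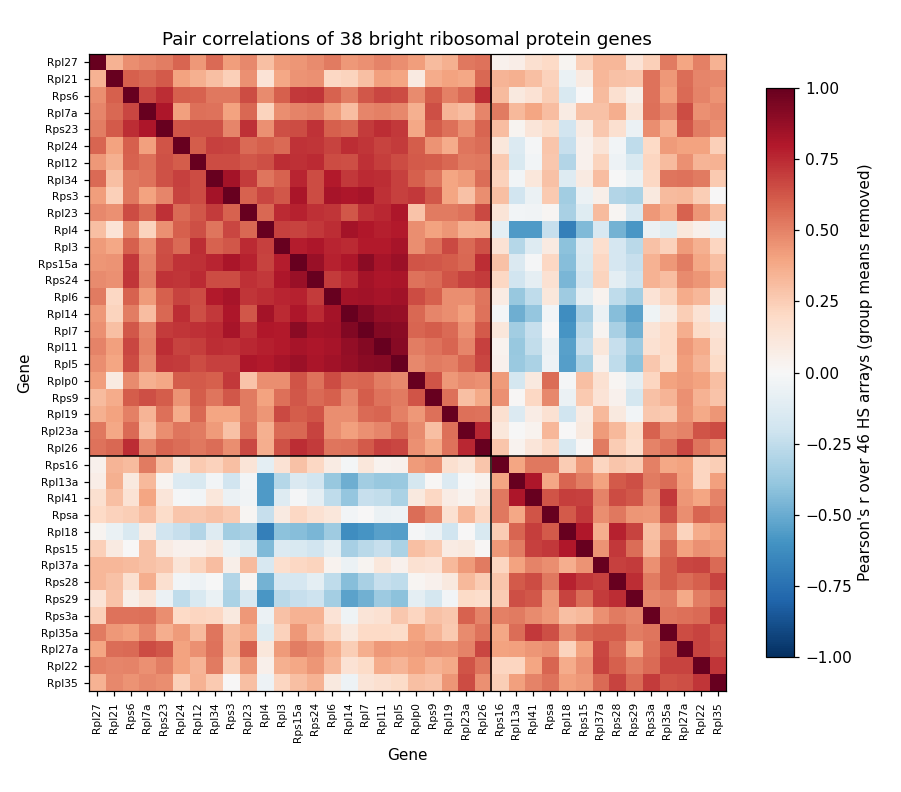
Pearson's r over 46 HS arrays, with the 2 group means removed, for each pair of the 38 bright ribosomal protein genes, ordered by average-linkage clustering; black lines part the larger group (24 genes, upper left) from the smaller group (14 genes, lower right). Red is positive and blue negative; the larger group has a median r of 0.59, the smaller of 0.53, and blue cells between them reach -0.68.

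The mean of the larger group had an r of 0.06 with the mean of the smaller group over the HS arrays. The difference between the groups, larger minus smaller, ran from -0.49 through a median of -0.12 to -0.01 in intolerant rats, against -0.47, -0.17 and -0.06 in normal rats. In both groups of rats a few arrays lay far below the others, and the ranges overlapped almost fully.

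This difference varied with other genes of ribosome production. The mean of 40 ribosome assembly and ribosomal RNA transcription genes had a Pearson's r of -0.72 and a Spearman's rho of -0.56 with it. Pearson's r was -0.66 within the 23 intolerant rats and -0.80 within the 23 normal rats, and -0.63 without the 2 arrays farthest from the median of the assembly genes. Taken apart, the assembly genes had an r of -0.51 with the larger group and 0.48 with the smaller group. These values were -0.27 and 0.61 within intolerant rats, and -0.70 and 0.43 within normal rats. The mean of 13 translation factors of the TOP class, such as the elongation factors, had an r of 0.64 with the smaller group and 0.16 with the larger group. Within intolerant rats these were 0.74 and 0.32, and within normal rats 0.48 and -0.03.

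Other measures moved with the same difference. The mean of 8 lymphocyte markers had an r of 0.48 with it (0.57 within intolerant and 0.42 within normal rats) and the array median an r of 0.34 (0.44 and 0.21). The mean of 2 erythroid genes had an r of -0.39, which was -0.16 without the 2 farthest arrays, -0.05 within intolerant rats and -0.67 within normal rats. The part of these measures in the co-variation was not tested. Most lymphocyte markers were dim: Cd2, Cd3d, Cd3e, Cd79b, Cd8a, Ms4a1 and Nkg7 lay below the array median. The mean lymphocyte level was 4.52 to 4.97 in intolerant rats and 4.59 to 5.15 in normal rats.

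**Figure D3:**
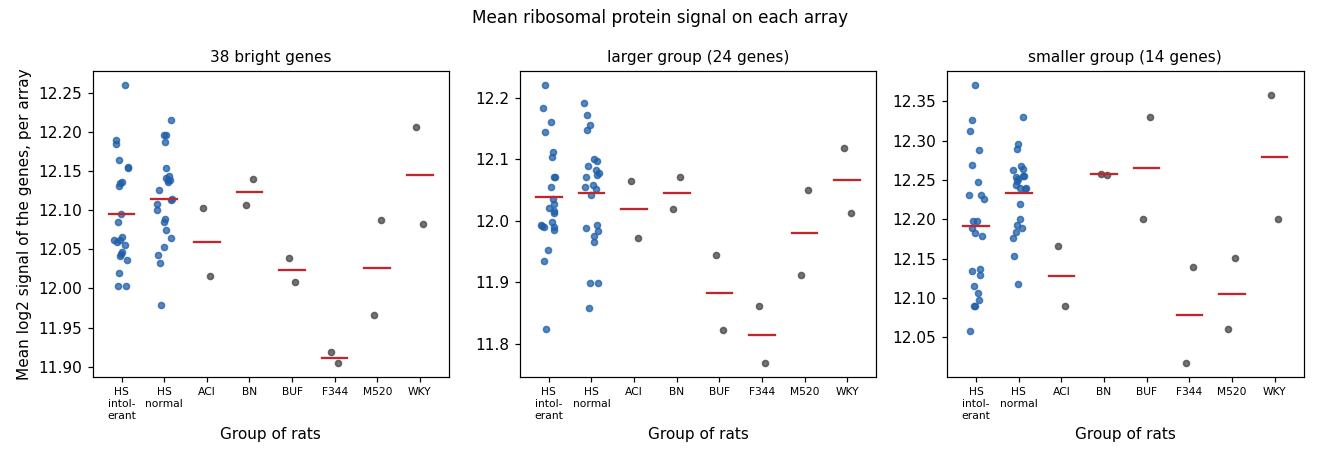
Mean log2 signal per array of the 38 bright ribosomal protein genes (left), the larger co-varying group of 24 (middle) and the smaller group of 14 (right); points are arrays and red lines group means, for 23 intolerant and 23 normal HS rats and 2 arrays in each inbred strain. Both F344 arrays lie below every HS array in the left panel (11.92 and 11.91, against 11.98 at the lowest HS array). An F344 array lies within the HS range in the middle panel (11.86) and in the right panel (12.14).

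The second comparison was among the 6 inbred strains. By the limma F test over the strains, 0 of 50 members passed an adjusted p of 0.05, against 11.9% of all probe sets. Unadjusted p was under 0.05 for 9 members, against 29.4% of all probe sets. The median range of strain means was 0.33 in members and 0.44 over all genes. Each strain had 2 arrays, so the lack of a call does not exclude a difference. The comparisons of single strains below share their arrays, so that a low value in one strain raises the differences of the other 5.

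The smallest F test p belonged to large-subunit genes. Rpl23a, at the mouth of the exit tunnel, had an adjusted p = 0.077, Rpl34 an adjusted p = 0.097 and Rpl11 an adjusted p = 0.098 in limma. The ranges of strain means were largest for Rpl39l1 (0.85), Rpl26l1 (0.67), Rps4y2 (0.66), Rpsa (0.65) and Rplp0 (0.53). For 46 of 50 members the mean of the HS rats lay within the range of the strain means.

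**Figure D4:**
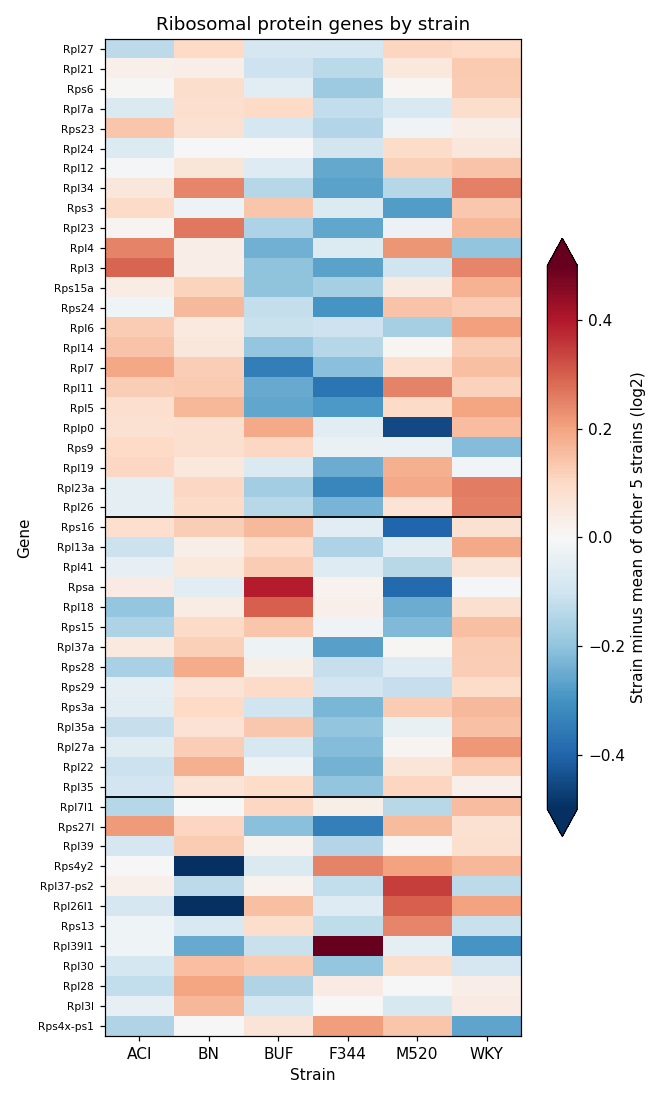
Difference in log2 signal between each strain (2 arrays) and the mean of the other 5 strains, for the 50 ribosomal protein genes; red is higher and blue lower in the strain named, and colours end at 0.5 on either side. Black lines part the larger co-varying group (top), the smaller group (middle) and the dim genes (bottom). The F344 column is blue for 36 of the 38 bright genes.

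Most ribosomal protein genes had low signals in F344, though no single gene passed the test. Differences from the mean of the other 5 strains were below 0 for 42 of 50 members and for 36 of the 38 bright members. The median difference was -0.14 over all members and -0.16 over the bright ones, against -0.004 over all genes. None of the 50 passed an adjusted p of 0.05 in limma, where 0.786% of probe sets were called lower in F344 and 0.821% higher. At an unadjusted p under 0.05 there were 15 members, against 11.3% of probe sets, and 14 of them had lower values, against 5.64% of probe sets.

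In 11 members both F344 arrays lay below the 10 arrays of the other strains, as 1.7% of all probe sets did. They were Rpl12, Rpl19, Rpl22, Rpl23, Rpl23a, Rpl27a, Rpl35a, Rpl37a, Rps24, Rps3a and Rps6. Their differences ran from -0.33 to -0.18, with limma adjusted p-values of 0.136 to 0.486. Some gaps were narrow. The higher F344 array had 11.753 in Rpl35a, against 11.757 at the nearest other array, and 12.194 in Rps3a, against 12.201. Of these genes, 6 belonged to the larger and 5 to the smaller co-varying group.

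Rpl23a had 11.38 and 11.41 in the F344 arrays, against 11.48 at the lowest, 11.76 at the median and 11.91 at the highest of the other 10 arrays. Its difference was -0.33 ± 0.09 (SE, limma adjusted p = 0.136), with a mean of 11.40 ± 0.02 in F344 (SD, n = 2) and 11.73 over the other strain means. Both F344 arrays were thus lowest, and the next array was one of BUF.

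Rpl37a had 12.24 and 12.38 in F344, against 12.50, 12.57 and 12.72 in the other arrays at the lowest, median and highest. The gap to the other strains was clear in both arrays, with a difference of -0.27 ± 0.09 (SE, limma adjusted p = 0.236). Rps24, a small-subunit protein mutated in human Diamond-Blackfan anaemia, had 11.70 and 11.60 in F344, against 11.73, 11.97 and 12.09. Its difference was -0.30 ± 0.09 (SE, limma adjusted p = 0.201), and the gap below the nearest other array was small. A dim second probe set of Rps24, with a mean of 5.26, gave a difference of 0.10 in F344 (limma adjusted p = 0.911). Rps6 had 12.12 and 12.06 in F344, against 12.17, 12.27 and 12.42, the smallest difference of the 11 genes (-0.18 ± 0.09, SE, limma adjusted p = 0.486).

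The HS rats gave a second set of arrays against which to read the F344 values. The mean of the 38 bright members was 11.92 and 11.91 in the F344 arrays, against at least 11.98 in all 46 HS arrays. An M520 array, at 11.97, was also below the lowest HS array. The median and highest HS values were 12.07 and 12.26 in intolerant rats, and 12.11 and 12.21 in normal rats. Neither co-varying group alone set both F344 arrays apart. In the larger group they had 11.86 and 11.77, against 11.82 at the lowest HS array. In the smaller group they had 12.02 and 12.14, against 12.06. Larger minus smaller was -0.16 and -0.37 in these 2 arrays. In 11 members both F344 arrays lay below the lowest of the 46 HS arrays, as in 0.732% of all genes. They are not the same 11 genes that lay below the other inbred arrays. Rpl37a had 12.38 in an F344 array, against 12.32 at the lowest HS array, and Rps24 had 11.70, against 11.64. Rpl35, not in the first set, had 12.095 and 12.146 in F344, against 12.152 at the lowest HS array. F344 had the lowest strain mean for 26 of 50 members, against 11.4% of all genes, and the highest for 3.

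The several-symbol probe sets, which the rule left out, gave a median difference of -0.19 in F344 over 36 probe sets, and none was called. Translation factors of the TOP class were below 0 in 11 of 13 and ribosome assembly genes in 31 of 40, with medians of -0.14 and -0.13 and no calls in F344. Mitochondrial ribosomal proteins, which serve a separate ribosome, were above 0 in 37 of 73, and 1 of 73 was called lower in F344.

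Markers of some other cell types mostly had differences below 0 in F344. Endothelial markers were below 0 in 6 of 6 genes, Kupffer cell and macrophage markers in 7 of 8 and bile duct markers in 4 of 4, with none called, while hepatocyte markers were above 0 in 4 of 7. The mean endothelial level was 8.08 and 8.33 in F344, against 7.97 to 8.98 in the other inbred arrays. The part of these cells in the ribosomal protein values was not tested.

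Rpl39l1 ran the other way in F344. Its signals were 3.69 and 4.77, against 3.25, 3.48 and 3.82 in the other arrays, so that only 1 F344 array stood apart. The difference was 0.73 ± 0.22 (SE, limma adjusted p = 0.155). Without F344 replicate 1 it was 1.27 with an adjusted p = 0.00961 in limma, a call that rests on a single array.

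Among the brightest probe sets of the 50 genes, Rps16 in M520 was the only one called in any comparison of a single strain with the others. In M520 2.76% of all probe sets were called lower and 1.89% higher. Rps16 had 11.53 and 11.74 in the M520 arrays, against 11.88, 12.04 and 12.17 at the lowest, median and highest of the other 10. The mean was 11.64 ± 0.15 in M520 (SD, n = 2) and 12.03 over the other strain means, a difference of -0.39 ± 0.10 (SE, limma adjusted p = 0.0436). Both M520 arrays also lay below the lowest of the 46 HS arrays, at 11.75, the second by less than 0.01. Rps16 was the only member of the 50 for which this held, as it did for 3.27% of all genes.

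The call was close to the threshold. It held in 10 of 21 alternatives, with adjusted p-values of 0.00117 to 0.398 and differences of -0.50 to -0.29. With the replicate number as a block, the adjusted p was 0.0534 in limma. When 1 inbred array was left out, the call held without BUF replicate 1 or WKY replicate 2 and was lost without any of the others.

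Further members had low values in M520 without passing the test. Rplp0, the core of the stalk that recruits elongation factors, had 11.22 and 11.70 in M520, against 11.76, 11.91 and 12.05. Both arrays lay below the others, one of them far below, with a difference of -0.45 ± 0.12 (SE, limma adjusted p = 0.0586). Rpsa, a small-subunit protein also known as a laminin receptor, had 11.30 and 11.47 in M520, against 11.59, 11.75 and 12.21, with a difference of -0.39 ± 0.11 (SE, limma adjusted p = 0.0784).

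Rps3, at the entry of the messenger channel, and Rpl18 were likewise low in both M520 arrays. Rps3 had 11.34 and 11.57 in M520, with the second array below the nearest other array (11.57) by less than 0.01. Rpl18 had 12.01 and 11.97 in M520, against 12.03, 12.20 and 12.70, and a difference of -0.25 ± 0.14 (SE, limma adjusted p = 0.356). With Rps16, Rplp0 and Rpsa these made 5 of 50 members below all other inbred arrays, against 5.12% of probe sets. Rpl37-ps2, a pseudogene symbol, was above all other inbred arrays, as 4.15% of probe sets were, with 5.91 and 5.77 in M520, against 5.38, 5.49 and 5.65 (difference 0.34 ± 0.09, SE, limma adjusted p = 0.063).

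The family had no common direction in M520. The median difference was 0.01, with 29 of 50 members above 0, against a median of -0.03 over all genes. The 12 bright small-subunit genes had a median of -0.05, and the 26 bright large-subunit genes 0.03. Differences were below 0 in M520 for 8 of 8 Kupffer cell and macrophage markers (2 called) and for 5 of 6 endothelial markers (1 called). Of the 7 hepatocyte markers, 4 were above 0 and 2 were called lower. The mean Kupffer cell level was 8.25 and 8.43 in M520, against 8.32 to 9.79 in the other inbred arrays. Their part in the values of Rps16 was not tested.

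**Figure D5:**
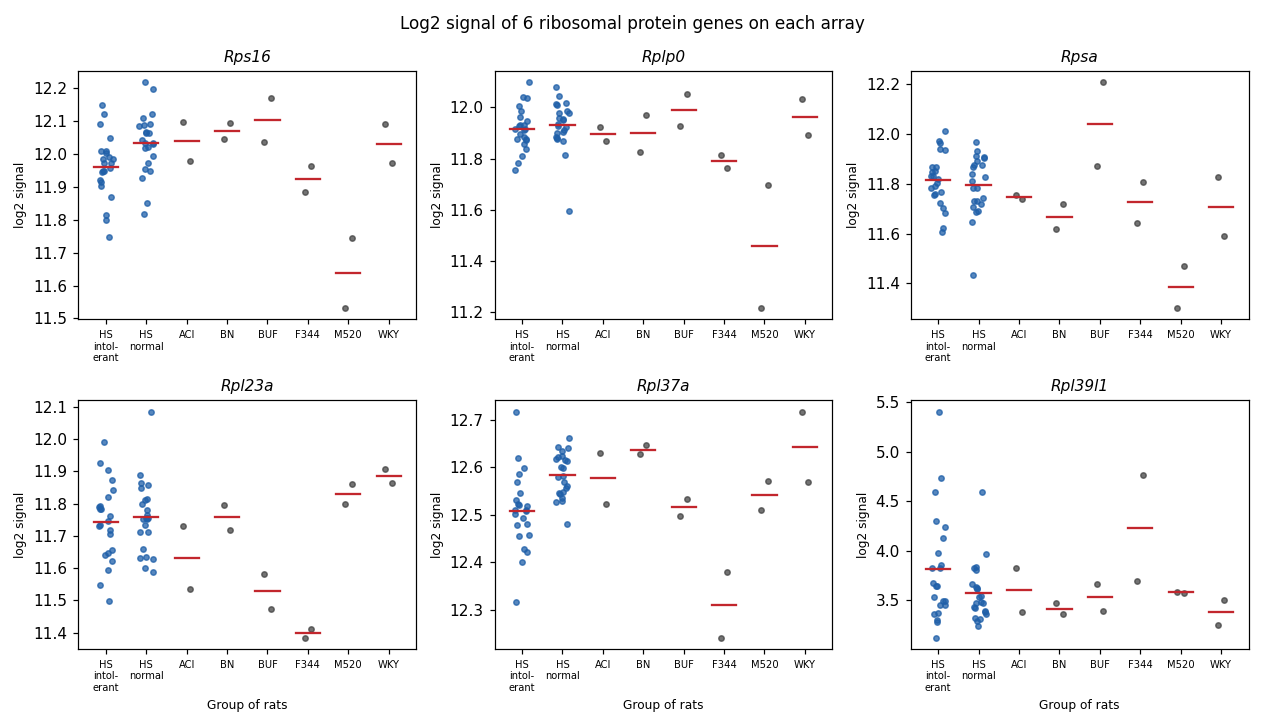
Log2 signal on each array of Rps16, Rplp0, Rpsa, Rpl23a, Rpl37a and Rpl39l1 in 23 intolerant and 23 normal HS rats and in 2 arrays of each inbred strain; points are arrays, red lines are group means, and each panel has its own axis. M520 is low for Rps16, Rplp0 and Rpsa, F344 is low for Rpl23a and Rpl37a, and 1 F344 array is high for Rpl39l1 (4.77).

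Rpsa ran opposite ways in BUF and M520. Its BUF arrays had 11.87 and 12.21, against 11.30, 11.68 and 11.82 in the other arrays, so that both lay above all of them. The difference was 0.39 ± 0.11 (SE, limma adjusted p = 0.0675). None of the 50 members was called in BUF, where 2.49% of probe sets were called higher and 3.27% lower. Unadjusted p was under 0.05 in limma for 5 members, against 23% of probe sets. Rpsa was the only member with both BUF arrays above the other 10, as in 3.9% of probe sets.

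Rpsa has 3 probe sets, and the other two also had high values in BUF. They gave differences of 0.51 (limma adjusted p = 0.0611) and 0.54 (limma adjusted p = 0.0281), so that 1 of the 3 was called. In M520 they gave -0.38 and -0.29, against -0.39 in the brightest. By their suffixes these other two probe sets can also bind related transcripts, so the signals of Rpsa and of near copies cannot be told apart in them.

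The 2 BUF arrays differed from each other. Rpl7 had 11.87 and 11.29 in BUF, against 11.57, 11.99 and 12.08, and Rpl18 had 12.18 and 12.70, against 11.97, 12.10 and 12.40. The second array thus stood apart, low in the first gene and high in the second. Without BUF replicate 1, limma called 4 members in BUF, Rpl18 and Rpsa higher and Rpl5 and Rpl7 lower, from a single array. Markers of some other cells mostly had low values in BUF. Differences were below 0 for 6 of 6 endothelial markers (2 called) and 7 of 8 Kupffer cell and macrophage markers (2 called). Stellate and matrix markers were below 0 in 6 of 8 (3 called). Above 0 were 1 of 4 bile duct, 5 of 8 lymphocyte and 2 of 2 erythroid markers, against 55.5% of all genes. Of these, 1 lymphocyte marker was called lower. Of the 7 hepatocyte markers, 5 were below 0 and 0 were called. The part of these markers in the ribosomal protein values was not tested.

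WKY and BN had high values over much of the family with no call. Differences were above 0 for 41 of 50 members in WKY (median 0.13) and for 42 of 50 in BN (median 0.08), against medians of 0.01 over all genes in both. The WKY median rests partly on 1 array: it was 0.06 without WKY replicate 1 and 0.14 without WKY replicate 2, and the mean of the bright members was 12.21 and 12.08 in these arrays. In WKY 2.67% of probe sets were called higher and 2.07% lower, and in BN 2.6% and 2.08%. Unadjusted p was under 0.05 in limma for 5 members in WKY, against 18.1% of probe sets, and for 4 in BN, against 16.7%.

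In WKY, Rpl23a had 11.91 and 11.86, against 11.38, 11.65 and 11.86 in the other arrays. Both WKY arrays were highest by a narrow margin, with a difference of 0.26 ± 0.09 (SE, limma adjusted p = 0.164). Rpl26, another protein of the exit tunnel, had 12.91 and 12.83 in WKY, against 12.41, 12.67 and 12.76, and was likewise above all others, as 3.44% of probe sets were. Rps9, which helps assemble the small subunit, had 11.78 in both WKY arrays, against 11.86, 11.97 and 12.13, below all others as 3.97% of probe sets were (difference -0.22 ± 0.10, SE, limma adjusted p = 0.272). The member with the greatest difference in WKY was the dim Rpl39l1, at -0.29 ± 0.22 (SE, limma adjusted p = 0.525).

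In BN the greatest differences were those of 2 dim paralogs. Rps4y2 had 5.71 and 5.84 in BN, against 5.70, 6.33 and 6.92, within the range of the other arrays, with a difference of -0.55 ± 0.24 (SE, limma adjusted p = 0.28). Rpl26l1 had 4.86 and 5.20, against 5.06, 5.59 and 5.78, with a difference of -0.50 ± 0.16 (SE, limma adjusted p = 0.111). Neither was separate from the other strains in both arrays.

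ACI was near the mean of the strains. The median difference was -0.02, with 23 of 50 above 0, and no member was called, where 1.34% of probe sets were called higher and 1.08% lower. Unadjusted p was under 0.05 in limma for 1 member, against 15.6% of probe sets. Rpl3 had 12.10 and 11.96 in ACI, against 11.46, 11.75 and 12.15, an overlap with WKY, and a difference of 0.29 ± 0.11 (SE, limma adjusted p = 0.234).

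Markers of some other liver cells also had high values in BN and WKY. In BN, differences were above 0 for 6 of 6 endothelial markers (4 called), 8 of 8 Kupffer cell and macrophage markers (2 called) and 7 of 8 stellate and matrix markers (1 called). In WKY they were above 0 for 5 of 6, 7 of 8 and 8 of 8 of these, with 0, 1 and 2 called. Bile duct, lymphocyte and erythroid markers were above 0 in 2 of 4, 5 of 8 and 2 of 2 in BN, with 1 lymphocyte marker called lower. In WKY the counts were 4 of 4, 5 of 8 and 0 of 2, with 1 lymphocyte marker called higher. Hepatocyte markers were above 0 in 5 of 7 in BN and 6 of 7 in WKY, with none called. Over all genes the shares above 0 were 52.6% and 53.0%. The part of these cells in the ribosomal protein values of BN and WKY was not tested.

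Other genes of ribosome production were read from lists of known members. In the glucose comparison, none of 13 TOP translation factors, 40 assembly genes, 19 regulators or 73 mitochondrial ribosomal proteins was called. Among the strains the F test called 2 of 13, 1 of 40, 2 of 19 and 10 of 73 of them, against 13.8% of all genes.

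In the TOP list, Naca, a chaperone of nascent chains, differed among the strains by the F test (limma adjusted p = 0.0397) and was 0.41 lower in BUF than in the other strains (limma adjusted p = 0.0343). Nap1l1, a histone chaperone, differed by the F test too (limma adjusted p = 0.0406). In the assembly list, Gnl3, which encodes nucleostemin, was 0.77 higher in BN, 0.55 higher in M520 and 0.83 lower in BUF (limma adjusted p = 0.00634, 0.0402 and 0.00586). Pes1, a large-subunit assembly factor, was 0.55 lower in M520 (limma adjusted p = 0.0278).

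Among the regulators, Myc, a transcription factor that drives ribosome genes, was 1.88 higher in M520 and 2.08 lower in F344 than in the other strains, with limma adjusted p-values of 0.0313 and 0.0348. Rps6ka3, a kinase that phosphorylates Rps6, was 0.65 higher in WKY (limma adjusted p = 0.0301). Of the 73 mitochondrial ribosomal proteins, 8 were called lower and 2 higher in M520, 2 lower and 3 higher in BUF, and 2 lower and 2 higher in BN. ACI and WKY had 1 called higher each, and F344 had 1 called lower. Among them Mrpl4 ranged by 1.18 among the strain means and was 0.82 lower in M520 (limma adjusted p = 0.00154), and Mrps35 was 0.54 higher in M520 (limma adjusted p = 0.0123).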

How the data were processed

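Signals of 31042 probe sets on 58 arrays were used as the authors' deposited log2 values. The submitters' processing notes name Partek; background correction, summarisation, normalization and genome build are not given in these sources. Arrays have no read depth, and their number limits the precision. Genes were named from the platform annotation: 20826 probe sets had 1 symbol, 436 several and 9780 none. RefSeq (GRCr8) held 48 of the 50 members.

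The tests were made in R 4.3.3 with limma 3.58.1 (lmFit, eBayes), unfiltered, adjusted by Benjamini-Hochberg over all probe sets at 0.05, two-sided. Glucose groups were compared among 46 HS arrays (44 residual degrees of freedom) and strains among 12 inbred arrays (6), by an F test and as each strain minus the mean of the other 5. The fits were tested on simulated data in which some probe sets carried a known shift. With a 0.5 log2 shift in M520, the fit recovered 26.9% of the 67 shifted probe sets. Recovery rose to 83.6% with a shift of 1. The glucose fit recovered 64.2% at a shift of 0.25 and 97.0% at 0.5. A lack of calls in a strain thus does not exclude differences of 0.5 or less. Genes were named by rule: called members, smallest p, largest ranges, differences and SD, and paralogs. Values of individual arrays in F344, M520, BUF and WKY, and the co-varying groups, were chosen after values were seen. The members and lists were chosen with earlier results of these data known. Alternatives covered filters, probe set choice, scaling, variance estimation, array weights, the replicate block, the arrays in the fit and leaving out arrays.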

Additional observations from a re-analysis of the deposited data

How the results depend on the processing

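The count of members called in the glucose comparison was 0 under the other settings tried and without each HS array in turn, and the median difference then stayed between -0.03 and -0.02. The F test count among strains was 0, or 1 with the mean of a gene's probe sets (Rpl23a) and 15 with all 58 arrays in the fit. In M520 the count was 3 with brighter probe sets alone, 3 with 1 probe set per gene, 2 with trend and robust variance, 4 with array weights, 3 with the mean of a gene's probe sets, 4 with all 58 arrays and 0 with the replicate block. In BUF it was 1 with the mean of a gene's probe sets. With all 58 arrays in the fit, where the HS rats set most of the spread estimate, limma called 2 members in BN, 1 in BUF, 1 in F344 and 2 in WKY. Leaving out each inbred array in turn gave 0 to 1 members by the F test, 0 to 1 in BN, 0 to 4 in BUF, 0 to 1 in F344, 0 to 3 in M520 and 0 in ACI and WKY. The members called by the F test were then Rpl11 without BUF replicate 1 and Rpl39l1 without F344 replicate 1, and the BN call was Rpl26l1 without F344 replicate 1. The cause of these changes was not tested. The block changed no other call. The replicate numbers did not pair the arrays: over 15 pairs of strains the correlation of same-numbered arrays ran from -0.15 to 0.42 and was over 0.1 in 3. The number of F344 members below the other 10 arrays was 12 after quantile normalization, 8 with the array median subtracted and 10 with the mean of a gene's probe sets. These settings and those for the co-variation were chosen after the data were seen.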
